A study of Mus musculus with 5 samples.

Results

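Regulatory T cells of the injured lung were described from the barcodes of a droplet single-cell RNA-seq time course that hold transcripts of *Foxp3*. The members were selected on measured values. A barcode was taken when it had between 300 and 8000 detected genes, between 800 and 60000 UMIs, a mitochondrial share below 15%, at least 1 UMI of *Cd3d*, *Cd3e* or *Cd3g*, at least 1 UMI of *Foxp3*, no UMI of *Cd8b1*, *Cd79a* or *Car4*, and at most 1 UMI of *Cd68* and *Mrc1* together. Of 52800 barcodes, 44772 passed the limits on genes, UMIs and mitochondrial share, 4218 of these met the rule without *Foxp3* (the T cell gate), and 366 were *Foxp3*+. The 769 barcodes of the same gate with at least 1 UMI of *Cd4* and none of *Foxp3* served as the reference. The paper reports adult mice of both sexes for the study as a whole, without the sex behind each library. All 5 libraries came from immune cells of the lungs of adult Ms4a3-CreER;R26-tdT mice on a C57BL6/129 mixed background. In this line a tamoxifen-dependent Cre recombinase, expressed from Ms4a3, switches on the red reporter tdT in cells of the monocyte lineage. One library came from control mice given PBS, and 1 each from mice killed on day 3, 7, 14 or 28 after bleomycin, a DNA-damaging drug that was instilled into the trachea to injure the lung. The number of mice behind each library is not given in the sources used here, so that no test between time points was possible, and the intervals below cover counting error only.

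Regulatory T cells are CD4+ T cells whose identity depends on the transcription factor *Foxp3*, encoded on the X chromosome. They carry the high-affinity IL-2 receptor chain *Il2ra* (CD25) and the inhibitory receptor *Ctla4*, live on IL-2 made by other T cells, and restrain immune responses through contact, cytokines and metabolites. In barrier tissues many of them carry the IL-33 receptor *Il1rl1* (ST2) and release the growth factor *Areg* (amphiregulin), which acts on epithelium. In the mm10 assembly *Foxp3* lies on chromosome X at 7573644 to 7595245 on the plus strand, *Ctla4* on chromosome 1 at 60887000 to 60915832 and *Il2ra* on chromosome 2 at 11642807 to 11693193, each a protein-coding gene counted here over its transcripts.

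The libraries were of unequal depth and size. The libraries of PBS and days 3, 7, 14 and 28 held 131210167, 89769386, 151234640, 144984156 and 167506186 UMIs over all deposited barcodes, and 13, 72, 192, 57 and 32 *Foxp3*+ barcodes. The *Foxp3*+ barcodes had a median of 4158, 7669, 9853.5, 4498 and 3424 UMIs, against 5229, 6314, 6509, 5490.5 and 4222 in the reference. The PBS set is therefore small, with 56182 UMIs in all. Any 2 libraries shared 22 to 41 barcode sequences, none of them *Foxp3*+ in both libraries. Of the 366, 15 were among the 3822 barcodes predicted to be doublets, which were kept except where stated.

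The day 7 library stood apart in 2 ways. Its lowest barcode held 4624 UMIs, whereas the others reached down to 500 or 502. In addition, 63 of its 192 *Foxp3*+ barcodes (32.8%, exact 95% interval 26.2 to 39.9) held 5 or more UMIs of *H2-Aa*, an MHC class II gene of antigen-presenting cells, against 0 of 13, 0 of 72, 2 of 57 and 0 of 32 in the other libraries, where the counts of 0 allow up to 23.1%, 4.17% and 9.38%. The same held for 20 of 120 reference barcodes at day 7 (16.7%) and 84 of 316 other barcodes of the gate (26.6%). The 63 barcodes had a median of 16479 UMIs against 7326 in the other 129, with a median of 213 against 1 UMIs of *Cd74* and 125 against 2 of *Cst3*, but also 12 against 17 UMIs of the Cd3 genes and 2 against 3 of *Foxp3*. Of the 63, 34 held at least 3 UMIs of *Fscn1* or *Ccl22*, genes of migratory dendritic cells. At least 3 UMIs of *Cd209a* were held by 11, and of *Xcr1* and *Clec9a* together by 7, which are genes of other dendritic cells. Predicted doublets were 6 of the 63 and 0 of the other 129. The class comparison was therefore repeated without the barcodes holding *H2-Aa* and without day 7.

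**Figure D1:**
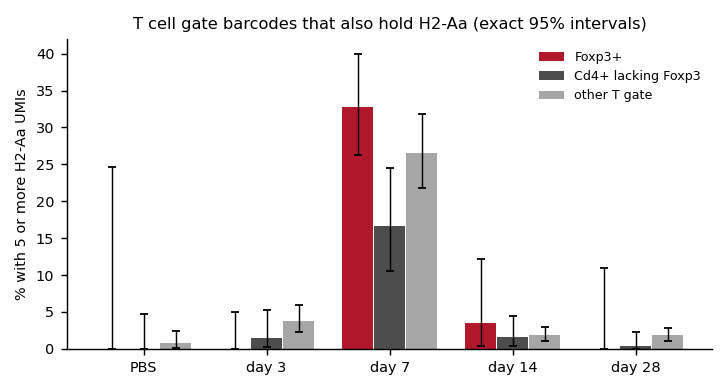
Percentage of barcodes with 5 or more *H2-Aa* UMIs (y axis) in each library (x axis) among *Foxp3*+ barcodes, the *Cd4*+ reference and the rest of the T cell gate, with exact 95% binomial intervals. At day 7 the share was 32.8% in *Foxp3*+ barcodes, and in the other libraries it was 3.51% or lower.

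*Foxp3* UMIs were rare in cells that should lack the gene. Among macrophage barcodes without a Cd3 UMI (at least 3 UMIs of *Cd68* and *Mrc1*), a *Foxp3* UMI was seen in 6 of 6012, 12 of 3193, 16 of 5223, 6 of 3777 and 6 of 6017 barcodes in the order PBS, day 3, 7, 14 and 28, at a median depth of 13912 to 23966 UMIs. Among dendritic cell barcodes without a Cd3 UMI (at least 20 UMIs of *H2-Aa*), 2 of 758 held one at day 7 and none of 22, 117, 140 and 151 elsewhere, which allows shares of up to 13.6%, 2.56%, 2.14% and 1.99%. Over all libraries, *Ctla4* stood at 234 CPM (UMIs of the gene scaled to a common total) in the reference with 0 *Foxp3* UMIs and at 971, 758 and 945 CPM with 1, 2 and 3 or more, and *Ikzf2* stood at 141 against 999, 886 and 1277 CPM. At the other limit, 5, 6, 51, 16 and 5 *Foxp3*+ barcodes held 1 UMI of *Cd68* and *Mrc1*, and 1, 2, 18, 4 and 2 barcodes that met the rest of the rule fell just outside with 2. The defining markers were present in every library. For shares of barcodes, each barcode was thinned to 2000 UMIs and shallower ones were left out, which removed 0, 3, 0, 5 and 9 *Foxp3*+ and 0, 1, 0, 4 and 9 reference barcodes. A *Ctla4* UMI was then found in 76.9%, 84.1%, 67.2%, 90.4% and 78.3% of the remaining *Foxp3*+ barcodes and in 13.2%, 30.1%, 31.7%, 32.4% and 22.7% of the reference, in the order PBS, day 3, 7, 14 and 28, which is used throughout. Without thinning the *Foxp3*+ shares were 92.3%, 95.8%, 97.9%, 96.5% and 93.8%, and in macrophages 0.366% to 2.19%.

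*Foxp3*+ barcodes made up a larger part of the T cell gate early after bleomycin than in PBS or at day 28. The share was 2.87% in PBS (13 of 453, exact 95% interval 1.54 to 4.86), 10.5% at day 3 (72 of 683, 8.34 to 13.1), 30.6% at day 7 (192 of 628, 27.0 to 34.3), 4.97% at day 14 (57 of 1147, 3.79 to 6.39) and 2.45% at day 28 (32 of 1307, 1.68 to 3.44). The interval of day 7 lay above all others and that of day 3 above PBS, day 14 and day 28, whereas PBS overlapped days 14 and 28. Of *Foxp3*+ and *Cd4*+ reference barcodes together, *Foxp3*+ barcodes were 14.6%, 35.0%, 61.5%, 22.9% and 11.5%, and of all barcodes kept 0.141%, 0.900%, 2.02%, 0.735% and 0.311%. The day 7 library has no shallow barcodes. With its floor of 4624 UMIs set in every library, the shares of the gate were 3.42%, 13.7%, 30.6%, 5.43% and 3.46%, in the same order for the 3 highest, and without the barcodes holding *H2-Aa* the day 7 share was 28.0%. The gate asks for only 1 Cd3 UMI. Its barcodes of neither class, without those holding *H2-Aa*, had a median of 2, 2, 9, 6 and 7 Cd3 UMIs. In *Foxp3*+ barcodes the median was 11, 29, 17, 9 and 6. A share of the gate may thus not be a share of T cells, to an extent that differs by library and was not tested. Shares of this kind depend on what else was captured, and with 1 library per time point the library and the day cannot be told apart.

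**Figure D2:**
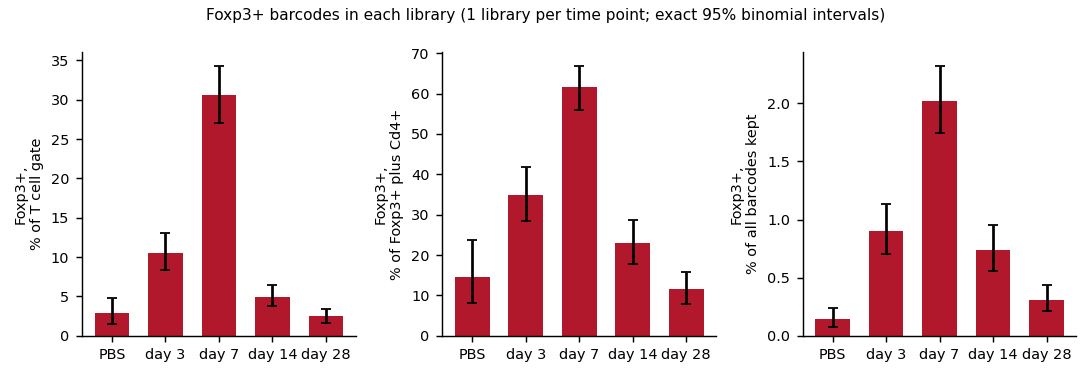
*Foxp3*+ barcodes in each library (x axis) as a percentage of the T cell gate (left), of *Foxp3*+ plus *Cd4*+ reference barcodes (middle) and of all barcodes kept (right). Bars are shares of 1 library each and whiskers exact 95% binomial intervals. The share peaked at day 7 with each denominator, at 30.6%, 61.5% and 2.02%.

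To see what sets these cells apart from their *Foxp3*- neighbours, UMIs were summed per class and library, and the 2 classes were compared within libraries with edgeR's quasi-likelihood test. A library entered with at least 20 barcodes of each class, which left the 4 bleomycin libraries. The PBS library, with 13 *Foxp3*+ barcodes, is given by its values only, apart from an alternative fit that added it (748 of 7066 genes called). Of 7468 genes tested, 330 were higher in *Foxp3*+ barcodes (4.42%) and 367 lower (4.91%) at a Benjamini-Hochberg adjusted p under 0.05, and the median log2 fold change over all genes was -0.04. The genes used in the rule were left out of these counts. The 4 libraries are different days rather than repeats of one condition, and the test measures whether a difference recurs across them. Without the library block 78 genes passed, so that most calls rest on the comparison being made within libraries.

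The identity genes of regulatory T cells were higher in the *Foxp3*+ barcodes almost without exception. Of 14 listed genes other than *Foxp3*, 13 passed the filter on low counts, and 12 of these were higher and none lower, with a median log2 fold change of 1.70. *Ikzf2* (Helios), a transcription factor that stabilizes the lineage, stood at 1104, 1111, 1098, 1265 and 1402 CPM in *Foxp3*+ barcodes and at 27.3, 133, 252, 160.3 and 63.2 CPM in the reference (log2 fold change 2.92, standard error 0.24, adjusted p = 6.9e-06 from edgeR). Its lowest *Foxp3*+ value, at day 7, lay above its highest reference value, so that the library sums of the classes did not overlap. *Il2ra* stood at 231, 314, 283, 338 and 566 CPM against 9.93, 29.6, 65.04, 48.01 and 24.4 CPM (log2 fold change 2.92, standard error 0.24, adjusted p = 6.9e-06 from edgeR), and its highest level was at day 28. *Ctla4* stood at 1442, 1301, 676, 1390.1 and 1007 CPM against 84.4, 305, 213, 286 and 191 CPM (log2 fold change 1.93, standard error 0.13, adjusted p = 2.8e-06 from edgeR). The day 7 value of *Ctla4* was the lowest of the 5, and without the barcodes holding *H2-Aa* it was 903 CPM. The TNF receptor family members *Tnfrsf4* (OX40) and *Tnfrsf18* (GITR), which carry costimulatory signals, were higher with log2 fold changes of 2.27 and 1.70. Both were highest at day 3, *Tnfrsf4* at 1687 CPM and *Tnfrsf18* at 1092 CPM. The integrin chain *Itgae* (CD103), which binds epithelial E-cadherin, the Helios relative *Ikzf4* (Eos), the actin-capping protein *Capg* and the folate receptor family member *Izumo1r* had log2 fold changes of 2.28, 1.92, 1.53 and 1.15, and *Socs2*, *Il2rb* and *Nrp1* smaller ones of 0.91, 0.80 and 0.75. *Socs2* and *Il2rb* lost their call with barcodes thinned to 2000 UMIs, and *Nrp1* with the UMI floor of day 7. *Ecm1* did not pass (0.07, adjusted p = 0.92 from edgeR). Without the day 7 library the same count of 12 of 13 was higher, as it was without the barcodes holding *H2-Aa*.

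**Figure D3:**
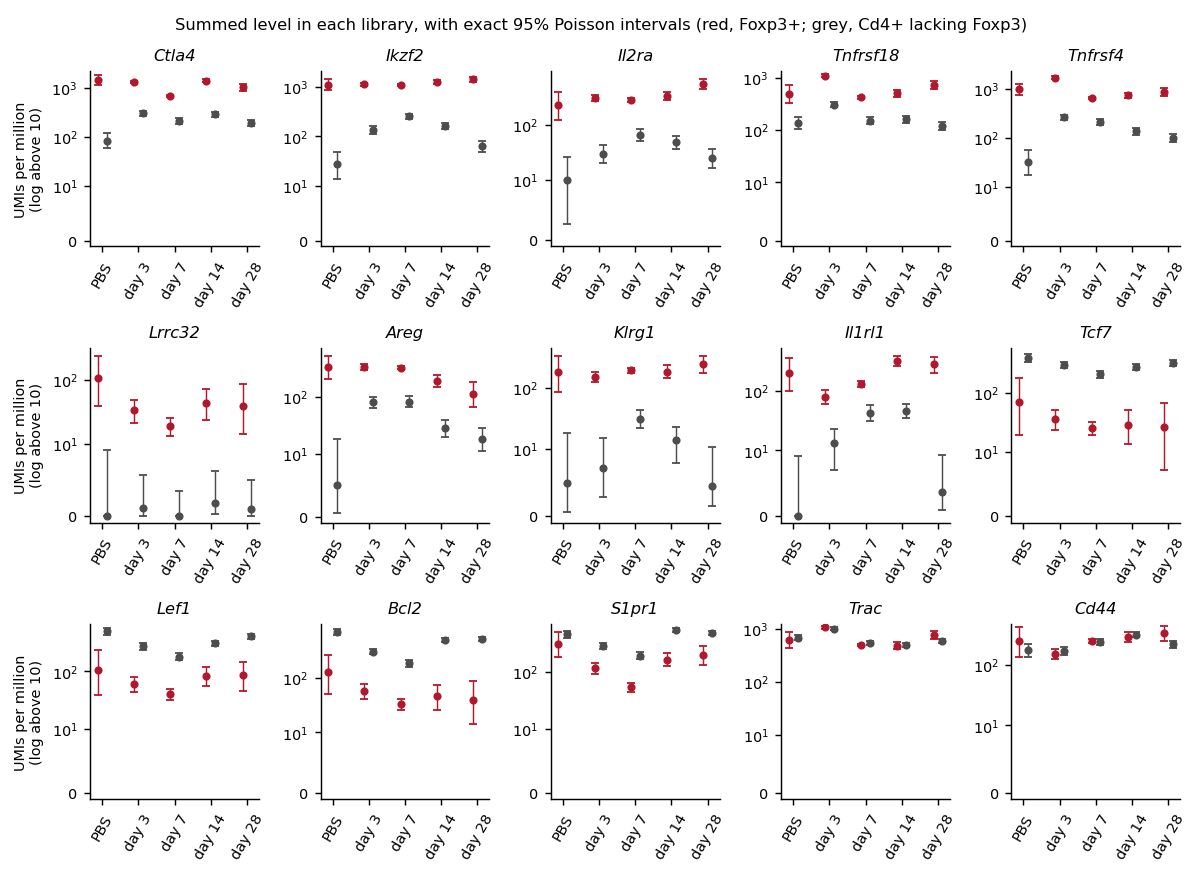
Summed level of 15 genes (CPM, y axis, logarithmic above 10 and linear below) in each library (x axis) in *Foxp3*+ barcodes (red) and the *Cd4*+ reference lacking *Foxp3* (grey), with exact 95% Poisson intervals that cover counting error only. Identity and effector genes lie higher in red in every library, the naive genes *Tcf7* and *Lef1* and the survival gene *Bcl2* lie lower, and *Trac* and *Cd44* show no such gap, with log2 fold changes of -0.11 and -0.08.

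Molecules by which regulatory T cells act on other cells were also higher. Of 12 listed, 11 were tested, 9 were higher and none lower (median log2 fold change 1.90). *Lrrc32* (GARP), which holds latent TGF-beta at the cell surface, had the largest fold change of the genes named by the rule. Its level was 107, 33.1, 18.7, 42.6 and 39.5 CPM against 0, 1.02, 0, 1.71 and 0.903 CPM (log2 fold change 4.83, standard error 0.48, adjusted p = 3.4e-05 from edgeR), and the reference reached 1.71 CPM at most. *Itgb8*, an integrin chain that releases active TGF-beta, had a log2 fold change of 2.96, and *Tgfb1* itself of 0.63. The suppressive cytokine *Il10* stood at 249, 131, 68.6, 73.8 and 6.58 CPM against 0, 14.3, 16.97, 7.72 and 0.903 CPM (log2 fold change 2.63, standard error 0.27, adjusted p = 3.8e-05 from edgeR). Its *Foxp3*+ level was lowest at day 28, where 1 UMI was counted. *Areg* stood at 338, 341, 326, 193 and 112 CPM against 4.96, 79.7, 82.01, 28.3 and 18.1 CPM (log2 fold change 2.13, standard error 0.16, adjusted p = 2.8e-06 from edgeR). The level of *Areg* was 326 to 341 CPM in PBS and at days 3 and 7, and lower at days 14 and 28. The cytotoxic protease *Gzmb* (2.02), the soluble inhibitor *Fgl2* (1.90), the lectin *Lgals1* (1.07) and the ectonucleotidase *Nt5e* (CD73, 0.86) were higher on the log2 scale. The other ectonucleotidase, *Entpd1* (CD39), missed the threshold at 1.09 (adjusted p = 0.053 from edgeR), as did the IL-35 subunit *Ebi3* at 0.94 (adjusted p = 0.19 from edgeR). *Gzmb* lost its call with DESeq2 in place of edgeR, and *Tgfb1* without day 3, with thinning and with the UMI floor of day 7.

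Genes of effector regulatory T cells in tissues were higher in part. Of 15 listed, 13 were tested, and 7 were higher and none lower (median 0.76). *Klrg1*, a receptor of terminally differentiated T cells that binds cadherins, stood at 178, 151, 194, 184 and 244 CPM against 4.96, 7.16, 31.1, 13.7 and 4.51 CPM (log2 fold change 3.58, standard error 0.29, adjusted p = 6.9e-06 from edgeR). *Tnfrsf9* (4-1BB), a receptor induced by T cell receptor signals, stood at 160.2, 485, 284, 306 and 165 CPM against 4.96, 24.5, 50.9, 16.3 and 13.5 CPM (log2 fold change 3.39, standard error 0.25, adjusted p = 2.8e-06 from edgeR). *Il1rl1* stood at 196, 79.5, 131, 321 and 276 CPM against 0, 13.3, 42.4, 46.3 and 3.61 CPM (log2 fold change 2.65, standard error 0.36, adjusted p = 0.00047 from edgeR). The *Il1rl1* level of *Foxp3*+ barcodes was lowest at day 3 and highest at day 14. Among transcription factors, *Prdm1* (Blimp-1, 1.58), *Gata3* (1.01) and *Maf* (0.65) were higher, and *Nfil3* was higher (0.77) but lost its call when day 3, 14 or 28 was left out. *Batf* at 0.34 (adjusted p = 0.24 from edgeR) and the activation marker *Cd44* at -0.08 (adjusted p = 0.78 from edgeR) did not pass.

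The opposite side of the comparison was held by genes of naive and central memory T cells. All 12 listed were tested and all 12 were lower in *Foxp3*+ barcodes (median -1.91). *Tcf7* (TCF-1), the transcription factor of naive and stem-like T cells, stood at 71.2, 35.8, 24.9, 28.4 and 26.3 CPM against 407, 307, 211, 279.5 and 328 CPM (log2 fold change -3.30, standard error 0.17, adjusted p = 2e-07 from edgeR). Its partner *Lef1* (-2.26), the chromatin organizer *Satb1* (-2.38) and the repressor *Bach2* (-2.12) followed, with *Dapl1* (-4.13) and *Igfbp4* (-3.12) at larger differences. Among genes of lymph node recirculation, *Klf2* (-1.50) and its target *S1pr1* (-1.70), the receptor for exit from lymph nodes, were lower, and the homing receptor *Ccr7* (-0.92) less so. *Ccr7* lost its call with DESeq2 and when day 3, 14 or 28 was left out. The IL-7 receptor *Il7r* was lower by a log2 fold change of -0.68, but not called without day 3 or day 28. *Klf2* stood at 1798, 355, 166, 417 and 395 CPM against 2234, 832, 489, 904 and 1070.0 CPM, and was highest in PBS in both classes.

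IL-2 reception and survival genes moved in both directions. Of 13 listed genes of IL-2 receptor and STAT5 signalling, 2 were higher and 5 lower. The STAT5 targets *Cish* (0.88) and *Pim1* (0.65) were the higher ones, and *Cish* lost its call with the UMI floor of day 7. *Bcl2*, which protects resting T cells from apoptosis, stood at 125, 56.98, 32.5, 45.4 and 39.5 CPM against 683, 299, 181, 481 and 507 CPM (log2 fold change -2.93, standard error 0.21, adjusted p = 2.8e-06 from edgeR), and its pro-apoptotic opponent *Bcl2l11* (Bim) was lower as well (-1.10). *Foxp3*+ barcodes were below the reference for *Bcl2* in all 5 libraries.

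Of 16 listed helper genes only 4 passed the filter, and 3 of them were lower and none higher. *Cd40lg*, the help signal to B cells, stood at 35.6, 5.30, 4.90, 14.2 and 13.2 CPM against 54.6, 28.6, 51.8, 90.03 and 107 CPM (log2 fold change -3.10, standard error 0.27, adjusted p = 8.9e-06 from edgeR). *Il17a* was listed with -2.32 and *Il2* with -1.71 on the log2 scale, and *Il2*, which regulatory T cells do not produce, reached adjusted p = 0.047 from edgeR and lost its call in 9 of the settings tried. *Il17a* lost its call without day 28, with the UMI floor of day 7 and without the library block. Of the 4 NK and CD8 T cell genes tested of 8 listed, *Gzma* (-2.12), *Ccl5* (-1.88) and *Nkg7* (-1.15) were lower. The death ligand *Fasl*, chosen by the rule on size, had a log2 fold change of -3.92, with 0, 2.65, 3.56, 0 and 0 CPM against 86.9, 59.3, 29.2, 68.6 and 20.8 CPM.

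Inhibitory and costimulatory receptors were higher for 4 of 10 genes tested of 12 listed, and none was lower. These were *Havcr2* (TIM-3, 1.67), *Pdcd1* (PD-1, 1.31), the TNF receptor *Tnfrsf1b* (1.29) and *Cd27* (0.55, not called without day 3, 7 or 14). Without day 7, 2 of 8 tested were higher and 1 lower. *Icos*, which is often named with these cells, did not differ past the threshold (0.26, adjusted p = 0.29 from edgeR). Among trafficking genes, the chemokine receptors *Ccr2* (1.66) and *Ccr6* (1.37) were higher, *Cxcr3* (-0.32), *Cxcr6* (-0.16) and *Ccr4* (0.62) did not pass the test, and *Gpr183* (-0.72) and *Itgb1* (-0.93) were lower. *Itgb1* stood at 819, 114, 147, 213 and 309 CPM against 397, 265, 308, 417 and 223 CPM, above the reference in PBS and at day 28. *Ccr2* stood at 231, 339, 265, 281 and 151 CPM against 54.6, 66.4, 86.7, 97.7 and 44.2 CPM (log2 fold change 1.66, standard error 0.16, adjusted p = 2.4e-05 from edgeR). In all, 4 trafficking genes of 14 tested were higher and 2 lower. Of the T cell receptor complex and its signalling genes, 2 of 11 tested were higher (*Cd2* and *Cd5*) and 5 lower, among them *Trbc1* (-0.83) and *Thy1* (-0.89), while *Trac* did not differ past the threshold (-0.11, adjusted p = 0.67 from edgeR). In PBS, which the test did not use, *Trbc1*, *Thy1* and *Il7r* were above the reference. There *Havcr2* was at 0 against 4.96 CPM in the reference, where a count of 0 allows up to 53.4 CPM. In the NF-kB list 4 of 12 were higher, among them *Nfkbia* (0.96) and *Traf1* (0.88). Of 14 interferon-stimulated genes *Ifi27l2a* was higher (0.56), and *Rsad2* (-1.22) and *Ifit1* (-0.68) were lower, each with calls that were lost when day 3 was left out. Without day 7 none of the 14 was lower, and of 10 immediate early and heat shock genes 1 was higher and 1 lower.

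The rule on size named further genes. *Ncmap*, a myelin protein gene, stood at 71.2, 76.9, 96.6, 76.6 and 52.7 CPM against 0, 11.2, 5.66, 6.002 and 4.51 CPM (log2 fold change 3.31, standard error 0.28, adjusted p = 8.2e-06 from edgeR), and *Neb*, which encodes the muscle protein nebulin, at 89.00, 29.2, 69.9, 156 and 158 CPM against 0, 8.18, 11.3, 1.71 and 27.1 CPM (log2 fold change 2.91, standard error 0.42, adjusted p = 0.00074 from edgeR). *Itgav*, an integrin chain that pairs with *Itgb8*, stood at 285, 156, 259, 389 and 323 CPM against 9.93, 26.6, 74.5, 35.2 and 23.5 CPM (log2 fold change 2.62, standard error 0.23, adjusted p = 1.1e-05 from edgeR). On the lower side were *Nsg2* (-3.30), the T cell receptor signalling adaptor *Themis* (-2.63), *Dennd2d* (-2.62) and *Ehd3* (-2.53). *Foxp3* itself is at 0 in the reference by the choice of members. Among the genes named by the rule on size, which asks for the same direction in all 5 libraries, the 5 with the highest log2 fold change were *Lrrc32*, *Klrg1*, *Tnfrsf9*, *Ncmap* and *Il2ra*. *Itgb8*, at 0 in both classes in PBS, fell outside that rule.

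The *Foxp3*+ barcodes were also described by whether they held *Il1rl1*. Barcodes with at least 1 UMI of *Il1rl1* numbered 4, 19, 99, 23 and 12, against 9, 53, 93, 34 and 20 without. This split was made on measured values and is described without a test. Without thinning, an *Il1rl1* UMI was seen in 1.33%, 0.532%, 6.34%, 5.08% and 1.81% of macrophages. In the reference the shares were 0%, 4.48%, 11.7%, 5.73% and 1.21%, where the count of 0 in PBS allows up to 3.95%. *Areg* stood at 532, 428, 296 and 178 CPM with *Il1rl1* and 238, 224, 86.5 and 59.1 CPM without, at days 3, 7, 14 and 28. *Klrg1* stood at 217, 292, 251 and 401 CPM against 116, 96.3, 115 and 118 CPM. Both were higher with *Il1rl1* in each of the 4 libraries. Over all 6287 genes at 20 CPM or more in either set, 510 were higher in all 4 libraries (8.11%) and 557 lower (8.86%). Of 13 tissue effector genes measured only *Klrg1* was higher in all 4, of 11 suppressor genes *Areg* and *Lgals1* were higher and *Nt5e* was lower, and of 13 identity genes *Il2ra* was higher and *Izumo1r* and *Socs2* were lower. Nothing is read from these small counts. Of 11 naive and central memory genes measured at 20 CPM or more, 4 were lower with *Il1rl1* in all 4 libraries (*Ccr7*, *Foxp1*, *Klf2* and *Tcf7*) and none was higher in all 4. Without barcodes holding *H2-Aa*, where 7.35% of genes were higher in all 4 and 9.94% lower, 6 of the 11 were lower and *Il7r* was higher, and *Il2rb* and *Itgae* joined the lower identity genes and *Fgl2* the higher suppressor genes. *Tcf7* stood at 34.2, 8.90, 0 and 0 CPM against 36.6, 41.00, 57.6 and 47.3 CPM. The counts of 0 allow up to 16.8 CPM at day 14 and 44.5 CPM at day 28, and the values of days 3 and 28 cannot be told apart at this depth. *Gata3*, in contrast, was higher with *Il1rl1* only at day 7 among the bleomycin libraries, at 240.2 against 125 CPM. At day 3 the barcodes with *Il1rl1* were deeper, with a median of 13197 against 6519 UMIs, and at day 28 shallower, with 2294.5 against 3663.

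Barcodes with cycling transcripts were most frequent among the *Foxp3*+ barcodes at days 3 and 7. With the same thinning, and a cell counted as cycling at 2 or more UMIs of 17 replication and mitosis genes, the share was 7.69% in PBS (1 of 13, exact 95% interval 0.195 to 36.0), 36.2% at day 3 (25 of 69), 35.4% at day 7 (68 of 192), 13.5% at day 14 (7 of 52) and 21.7% at day 28 (5 of 23, interval 7.46 to 43.7). The interval of day 28 spans the shares of days 3 and 7, and with predicted doublets removed the day 28 share was 14.3% (3 of 21). In the reference it was 14.5%, 9.77%, 26.7%, 12.8% and 3.78%. *Foxp3*+ barcodes were above the reference in 4 of 5 libraries, by a mean of 9.42 percentage points, which an exact two-sided sign-flip permutation test over the 5 libraries gave p = 0.1875, where the smallest p possible is 0.0625. Without thinning the *Foxp3*+ shares were 23.1%, 65.3%, 65.6%, 35.1% and 25.0%. Macrophages, whose free RNA could enter other droplets, had shares of 23.4%, 5.56%, 19.4%, 10.6% and 9.24%, lowest at day 3, and their part in the *Foxp3*+ values was not tested. Gene by gene, 7 of 17 cycling genes tested were higher in *Foxp3*+ barcodes and none lower, among them *Rrm2* (1.59), *Tk1* (1.64) and *Stmn1* (1.45), while *Mki67* missed the threshold (1.39, adjusted p = 0.065 from edgeR). *Stmn1*, a microtubule regulator of dividing cells, stood at 53.4, 652, 378, 159 and 474 CPM against 96.8, 129.8, 252, 123 and 35.2 CPM. *Rrm2* and *Tk1* were not called without day 3, and *Stmn1* not without day 28. With predicted doublets removed *Tk1*, *Stmn1*, *Tyms* and *Pcna* were not called, and with DESeq2 *Rrm2* and *Stmn1* were not. Without the barcodes holding *H2-Aa* 12 of 17 were higher, and without day 7 9 of 16.

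Across time points, the interferon-stimulated genes *Ifi27l2a* and *Isg15* and the granzyme *Gzmb* were most abundant in *Foxp3*+ barcodes at day 3, as levels of single libraries. The interferon-stimulated gene *Ifi27l2a* stood at 1317, 8742, 2357, 1285 and 1172 CPM in *Foxp3*+ barcodes and at 779, 5182, 1565, 959 and 506 CPM in the reference. *Isg15* stood at 35.6, 688, 45.4, 45.4 and 13.2 CPM against 34.8, 627, 78.2, 36.01 and 16.3 CPM. Both were highest at day 3 in both classes, and the summed level of 14 interferon-stimulated genes was 13799.5 CPM at day 3 against 1527 to 3164 CPM elsewhere in *Foxp3*+ barcodes. *Gzmb* stood at 142, 633, 44.97, 65.2 and 0 CPM against 7.45, 179.9, 13.2, 0 and 1.81 CPM, and it too was highest at day 3 in both. At day 28 no *Gzmb* UMI was counted in 32 *Foxp3*+ barcodes, where 3 counts would have been 19.7 CPM. *Nrp1*, a semaphorin receptor of thymus-derived regulatory T cells, stood at 552, 99.4, 112, 295 and 244 CPM against 44.7, 59.3, 68.8, 153 and 93.9 CPM, highest in PBS for *Foxp3*+ barcodes.

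**Figure D4:**
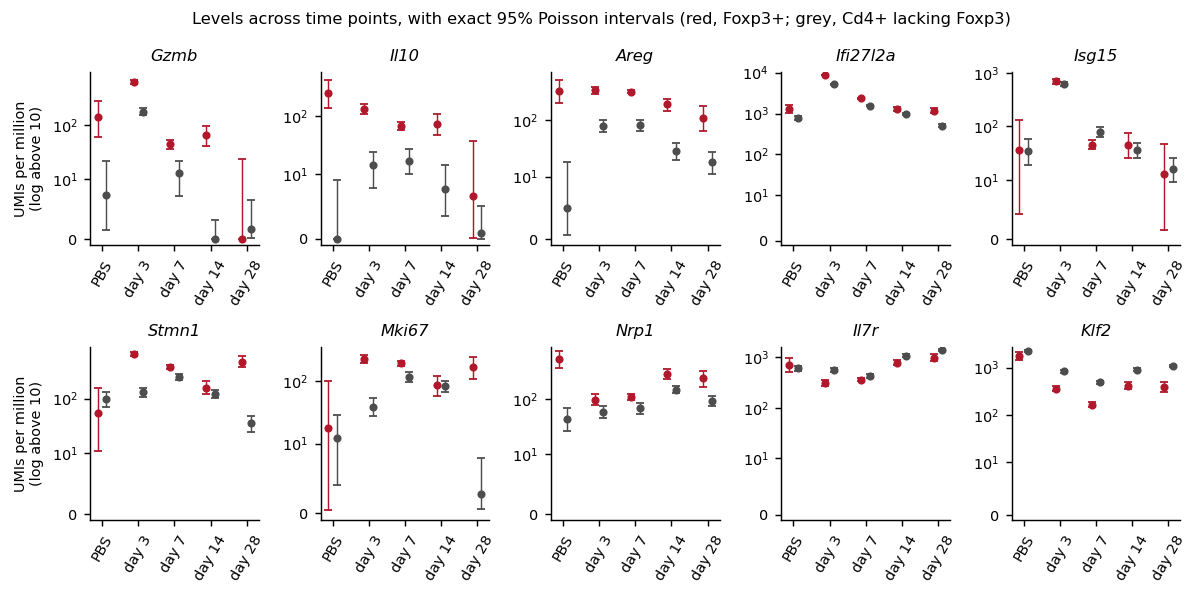
Summed level of 10 genes (CPM, y axis, logarithmic above 10 and linear below) by library (x axis) in *Foxp3*+ barcodes (red) and the *Cd4*+ reference (grey), with exact 95% Poisson intervals. *Ifi27l2a*, *Isg15* and *Gzmb* were highest at day 3 in both classes, and *Klf2* was highest in PBS in both.

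Set against PBS gene by gene, the ratios rest on 13 control barcodes with 56182 UMIs. Counting genes that reached 100 CPM in at least 1 of the 2 libraries, 626 of 1983 (31.6%) differed by 2-fold or more at day 3, 644 of 1930 (33.4%) at day 7, 555 of 1986 (27.9%) at day 14 and 592 of 1934 (30.6%) at day 28. In the larger reference class the shares were 9.54%, 15.2%, 11.0% and 7.47%. The 4 comparisons share the PBS library, and these shares are ratios past a size, not tested changes. The median gene of this kind lay at a log2 ratio of -0.18 at day 7.

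By the rule on size, 3 genes in each direction were named for each day. *Plac8* had 415 UMIs at day 3 and 0 in PBS, at least 10.3-fold higher against a floor of 3 counts over the PBS group (53.4 CPM), and the interferon-induced *Ifit3* 235 UMIs and 0, at least 5.83-fold higher. From PBS to day 3 *Plac8* also went from 19.9 to 289 CPM in the reference and from 64.5 to 1536 CPM in macrophages, and *Ifit3* from 2.48 to 383 CPM and from 0.950 to 498 CPM. *Ccl17*, a chemokine of dendritic cells, had 0 UMIs in PBS, 1157 at day 7 (9.65 times the floor) and 173 at day 14 (9.19 times the floor). *Napsa*, also at 0 in PBS, stood at 5.29 times the floor at day 7. Once barcodes with *H2-Aa* were left out, *Ccl17* was no longer among the 3 named for day 7 or day 14, nor *Napsa* for day 7. From PBS to day 7 *Ccl17* also went from 4.96 to 168 CPM in the reference and from 28.4 to 385 CPM in macrophages, and *Napsa* from 2.48 to 110.3 CPM and from 67.2 to 156 CPM. Haemoglobin *Hba-a2*, at 0 in PBS, stood at 2105 CPM at day 14 in *Foxp3*+ barcodes (39.4 times the floor) and at 1486 CPM in the reference. *Tff1*, a secreted mucosal peptide, had 72 UMIs at day 14 (3.83 times the floor) and 0 in PBS, with 1.71 CPM in the reference at day 14. At day 28 *Apobec3*, *Cks2* and *Hist1h1e*, each at 0 in PBS, stood at 4.68, 3.70 and 3.57 times the floor.

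Several of the lower genes were also lower outside the T cells. *Krt79* and *Plet1* had 7 and 8 UMIs in PBS and 1 and 2 at day 3 (94.0-fold lower, interval 12.1 to 4237, and 53.7-fold lower, interval 10.7 to 519), and the protease *Ctsk* 7 and 5 (18.8-fold lower, interval 5.14 to 75.1). *Krt79* was named at day 7 as well. In macrophages *Krt79* stood at 718 CPM in PBS and 77.7 CPM at day 3, and their part in these values was not tested. *Rpl29*, a ribosomal protein gene, stood at 1709 CPM in PBS and 5.67 CPM at day 14 in *Foxp3*+ barcodes, at 2515 and 6.002 CPM in the reference and at 859 and 5.65 CPM in macrophages. *Gm10709* was at 0 in PBS and at 499.6 CPM at day 3 and 398 CPM at day 7 in *Foxp3*+ barcodes, and at 2.85, 262 and 265 CPM in macrophages of PBS and days 3 and 7. *Rnaset2b* and *Gbp2b* at day 7, and *Gdpd3* and *RP23-299D2.2* at days 14 and 28, were the remaining lower genes besides *Gzmb*. In the reference, *Gdpd3* stood at 166 CPM in PBS and at 5.14 and 3.61 CPM at days 14 and 28. From PBS to day 7, *Rnaset2b* went from 74.5 to 0.943 CPM in the reference and from 21.5 to 0.478 CPM in macrophages, and *Gbp2b* from 9.93 to 0 CPM and from 6.56 to 0.234 CPM. From PBS to day 3 the reference went from 37.2 to 2.04 CPM for *Krt79*, from 67.02 to 2.04 for *Plet1* and from 57.1 to 6.13 for *Ctsk*. Macrophages went from 1509 to 248 CPM for *Plet1* and from 838 to 377 for *Ctsk*, and for *Gdpd3* from 119 CPM to 17.0 at day 14. For *Rpl29*, *Gm10709*, *Rnaset2b*, *Krt79*, *Plet1*, *Ctsk* and *Gdpd3* a difference in the same direction was thus seen in *Foxp3*+ barcodes, the reference and macrophages of the same libraries.

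Markers of other cell types were measured in both classes. Of 12 macrophage genes, 10 were tested and none passed the test between *Foxp3*+ barcodes and the reference. Their summed level was 3026, 1413, 2101, 3552 and 4403 CPM in *Foxp3*+ barcodes and 2169.5, 1145, 1503, 3504 and 4375 CPM in the reference. *Lyz2* was the most abundant of them in *Foxp3*+ barcodes of PBS and days 14 and 28, *Ctss* at day 3 and *Fabp5* at day 7, and 4 of the 12 in PBS and 2 at day 28 were at 0. None of 8 neutrophil genes passed, with summed levels of 107, 1464, 1862, 2511 and 79.0 CPM in *Foxp3*+ barcodes and 3542, 2591.5, 1735, 754 and 997 CPM in the reference. Of 3 dendritic cell genes tested none passed, and *H2-Aa* stood at 35.6, 43.7, 2831, 1251 and 46.1 CPM against 4.96, 511, 1436, 175 and 77.7 CPM. Of B cell genes *Ighm* was higher (log2 fold change 1.04, standard error 0.17, adjusted p = 0.0018 from edgeR), at 569.6, 591, 207, 258 and 230.4 CPM against 134, 165, 110.3, 125 and 125 CPM. Among structural genes *Scgb1a1*, of club cells, was lower (log2 fold change -1.55, standard error 0.42, adjusted p = 0.035 from edgeR), but not without day 7 or day 28. The reporter feature *RFP*, taken here as the transcript of tdT, was seen after thinning in 15.4%, 7.25%, 15.6%, 28.8% and 13.04% of *Foxp3*+ barcodes and in 17.1%, 20.3%, 26.7%, 36.2% and 20.2% of the reference. In macrophages its share was 22.5%, 59.9%, 28.9%, 57.8% and 32.8%, above both T cell classes in every library. The part of free RNA in these shares was not tested.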

How the data were processed

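The authors deposited 1 matrix of raw UMI counts per library (10x Genomics Single Cell 3′ chemistry), made, per the submitters' processing notes, with Cell Ranger 6.0.0 on mm10. The counts were read with Python 3.11.15 and SciPy 1.17.1. Members and gene lists were chosen with earlier results of these data known. Barcodes were kept between 300 and 8000 genes, between 800 and 60000 UMIs and below a mitochondrial share of 15%. UMIs were summed per class and library and tested with edgeR 4.0.16 (R 4.3.3) by the quasi-likelihood test with the library as a block and Benjamini-Hochberg adjustment over all genes tested, in libraries with at least 20 barcodes per class. The script was first tested on simulated counts. Named genes were the 10 with the largest fold change in each direction among called genes at 20 CPM or more that differed the same way in every library, and for each day the 3 with the largest ratio to PBS in each direction among genes that reached 100 CPM and whose interval excluded equality, with all genes of the fixed lists besides. Intervals are exact at 95%, cover counting error only, and a count of 0 was bounded with 3 counts. The median *Foxp3*+ barcode held 3424 to 9853.5 UMIs, which limits single barcodes to abundant genes. Alternatives were DESeq2 1.42.0, no filter, no block, a library left out, at least 2 *Foxp3* UMIs, a *Cd4* UMI required, thinning to 2000 UMIs, predicted doublets removed (Scrublet scores computed with scanpy 1.11.5, with a rate that grew with the number of barcodes), the UMI floor of day 7 and a 10% mitochondrial limit. The alternatives that leave out barcodes with 5 or more *H2-Aa* UMIs were chosen after seeing the data. A further alternative, also not planned, added PBS with its 13 *Foxp3*+ barcodes, under the minimum of 20. Gene positions are from GENCODE on GRCm38. Some genes of the lists are counted but not reported here by name.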

Additional observations from a re-analysis of the deposited data

Results flagged for a closer look

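Barcodes with UMIs of both *Foxp3* and a Cd3 gene that also held more than 1 UMI of *Cd68* and *Mrc1*, which the rule leaves out, made up 1.34% of the barcodes kept at day 7 (127 of 9493, exact 95% interval 1.12 to 1.59) against 0.0866% in PBS (8 of 9238). They were picked out as a signal above the control in barcodes that no comparison uses. At day 7 their median was 20808 UMIs, 54 of the 127 were predicted doublets and 72 had the other excluded genes at 0. They held *Ctla4* at 331 CPM and *Lyz2* at 7833 CPM.

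*Foxp3*+ barcodes with 5 or more UMIs of *H2-Aa* made up 32.8% of *Foxp3*+ barcodes at day 7 and 0 of 13 in PBS, which allows a share of up to 23.1%. The difference between libraries was not tested, and the part of doublets and of free RNA in it was not tested.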

How the results depend on the processing

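The PBS set of 13 barcodes limits every ratio to PBS, and 1 library per day leaves no replicate error. Leaving out 1 library at a time moved the 697 calls of edgeR to between 423 and 598, the lowest without day 28. Without the library block 78 genes were called, with thinning 374 of the 3383 genes that could still be tested (7468 without thinning), and with the UMI floor of day 7 417 of 7331. DESeq2 called 523 genes, 499 of them among the 697, and without barcodes holding *H2-Aa* 995 were called, 667 of them shared. These 995 were 477 higher and 518 lower of 6976 genes tested. Without day 7, 274 were higher and 324 lower of 7130 tested. These totals belong to all list counts given for both settings. Without barcodes holding *H2-Aa* 10 of 11 suppressor and 8 of 13 tissue effector genes were higher. In the same setting 3 of 8 receptors were higher and 1 lower, and 4 of 4 NK and CD8 genes were lower. Without day 7, 2 of 3 helper genes and 1 of 3 dendritic cell genes were lower. Of 93 genes followed through the settings, 84 were called, and all 84 kept their direction in every setting that tested them. Not every gene was tested in every setting. Of the 84, 59 were called in every setting that tested them other than the one without the block, and 27 without the block. The comparison of classes is paired by library, which both classes share. No paired analysis was possible between days because each day is 1 library.

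With at least 2 *Foxp3* UMIs the share of the T cell gate was 1.55% in PBS and 24.2%, 3.49% and 0.995% at days 7, 14 and 28, and of barcodes kept 1.60%, 0.516% and 0.126%. With the UMI floor of day 7 the share of the gate was 13.7% at day 3 and 3.46% at day 28, and of barcodes kept 0.0724% in PBS, 0.483% at day 14 and 0.134% at day 28. Without barcodes holding *H2-Aa* the day 7 share of barcodes kept was 1.36%. The cycling share was 65.3%, 65.6% and 35.1% at days 3, 7 and 14 without thinning, and with 3 or more cycling UMIs 0% in PBS, 28.1% at day 7, 5.77% at day 14 and 8.70% at day 28. Genes differing 2-fold from PBS numbered 1497 of 3930, 1516 of 3900, 1382 of 4031 and 1631 of 4010 from 50 CPM (38.1%, 38.9%, 34.3% and 40.7%), and with the UMI floor 966 of 2168, 872 of 2135 and 981 of 2142 at days 3, 14 and 28 (44.6%, 40.8% and 45.8%). The causes were not tested.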

Other observations

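Ribosomal protein genes were looked at after the test had been run. Of 76 tested, 59 were lower in *Foxp3*+ barcodes than in the reference and 1 higher, with a median log2 fold change of -0.59. Their share of UMIs was 22.0%, 17.7%, 22.1%, 19.0% and 22.8% in *Foxp3*+ barcodes and 31.5%, 26.1%, 25.9%, 26.8% and 32.7% in the reference, in the order PBS, day 3, 7, 14 and 28, and was lower in all 5 libraries. None of them was called without the library block, and 12 to 72 were called lower in the other settings.

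Among abundant genes outside the lists, chosen after their values were seen, the calcium-binding protein genes *S100a4* (1.55), *S100a6* (1.34) and *S100a10* (1.03) and the intermediate filament gene *Vim* (1.07) were higher in *Foxp3*+ barcodes on the log2 scale. *S100a4* stood at 1691, 1931, 3457, 3336 and 2442 CPM in *Foxp3*+ barcodes and at 581, 588, 1317, 867 and 659 CPM in the reference (log2 fold change 1.55, standard error 0.13, adjusted p = 8.2e-06 from edgeR).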
